A study of Mus musculus with 4 samples.

Results

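Proliferating cells switch on the cell cycle genes, a set of 40 genes for DNA replication, mitosis and the control of both. Here they were followed across 4 samples of adult mouse ureter. The set was fixed by gene name, and every Affymetrix probe set whose only annotated symbol is one of the 40 was taken. That gave 96 probe sets for 39 of the 40 genes, out of 45037 probe sets and 18193 named genes on the arrays. Ccnb1 was not analysed here, because none of its probe sets carries its symbol alone. By role the set holds 20 mitotic genes, 14 genes of the entry into and passage through S phase, the 3 D cyclins and 3 CDK inhibitors.

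All samples were labelled as adult male FVB/N mice at Theiler stage 28 that carried an EGFP transgene for smooth muscle gamma actin (SMGA/EGFP). The ureter, the muscular tube between kidney and bladder, was dissected by its green fluorescence, so that smooth muscle, which the transgene marks, guided the dissection. The samples were not pooled, and the RNA went through 2 rounds of amplification before hybridisation to MOE430 arrays. There was 1 group and 1 array per sample, called here replicates 1 to 4 in an order without meaning. The labels do not say that the samples came from separate animals, so a p-value here measures only the spread between these samples.

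Cells commit to division when D cyclins, made in response to growth factors, activate CDK4 and CDK6 and thereby release E2F factors from the retinoblastoma protein. E2F factors then turn on the genes for DNA replication, and a later wave, driven through B-MYB and FOXM1 bound with the MuvB complex, turns on the genes for mitosis. The lining of the adult ureter and its smooth muscle are known to renew slowly, and D cyclins and CDK inhibitors are made in resting as well as in cycling cells.

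Levels are log2(intensity + 16), given as mean ± SD over 4 samples, and differences are in log2 units. Each gene is represented by its brightest probe set on average, and levels of different genes were not set against each other. A gene was called above background where limma's moderated test placed the mean of any of its probe sets above the arrays' own thresholds (one-sided, Benjamini-Hochberg adjusted p under 0.05). The thresholds, taken from probe sets for chemosensory receptors, were 6.99 to 7.57. The arrays differed in quality and in content. The 3' to 5' signal ratio of Actb ran at 8.23, 19.8, 5.27 and 4.43 over replicates 1 to 4, and the Gapdh ratio at 34.3, 36.9, 31.6 and 18.8. Replicates 1 and 3 held liver transcripts, with all 7 measured liver genes over the threshold, and replicate 3 held skeletal muscle transcripts, with all 8 over it. The 5 measured genes of seminal vesicle and prostate summed to an intensity of 6544, 65337, 44076 and 675 in replicates 1 to 4. Of these genes 5, 5, 2 and 1 lay over the threshold. Svs4 had 11.96, 14.80, 6.55 and 6.63, and Svs5 had 10.35, 14.61, 7.61 and 7.22. Pbsn instead had 15.41 in replicate 3. With 4 arrays the precision of each value is limited.

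The mitotic and the S phase genes also differ in their promoters, which the choice of genes did not use. Windows of 300 bases, from 250 before to 50 after the annotated start, were found for 31 of the 40 genes in RefSeq's annotation of GRCm38.p6. They were searched on both strands for the CHR element (TTTGAA), the CCAAT box (CCAAT) and an E2F element (TTTCCCGC, TTTGGCGC, TTTCGCGC or TTTGCCGC). The CHR is the element through which MuvB complexes bind, and the CCAAT box is bound by NF-Y. Matches may overlap each other, such as E2F elements on opposite strands. Of 16 mitotic genes with a window, 12 (75%) held both a CHR and a CCAAT box, as did 1 of 12 S phase genes and 7.97% of 27025 genes in the table. An E2F element stood in 1 of 16 mitotic genes, Cdk1, and in 5 of 12 S phase genes (41.7%), against 2.6% of all genes. The stretches below show 4 mitotic promoters whose CHR lies before the start, with CHR and CCAAT in capitals, and 2 promoters of the replicative helicase, with E2F and CCAAT in capitals. All are written in the direction of the gene and end before the annotated start.
Cdk1, the kinase of mitotic entry, chr10:69352914-69353128, minus strand of GRCm38.p6: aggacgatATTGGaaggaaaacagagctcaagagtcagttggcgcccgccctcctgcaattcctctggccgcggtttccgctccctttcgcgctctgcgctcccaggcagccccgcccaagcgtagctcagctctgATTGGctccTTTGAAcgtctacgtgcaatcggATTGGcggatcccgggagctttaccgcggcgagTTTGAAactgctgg
Top2a, topoisomerase II alpha, which untangles chromosomes, chr11:99024199-99024424, minus strand of GRCm38.p6: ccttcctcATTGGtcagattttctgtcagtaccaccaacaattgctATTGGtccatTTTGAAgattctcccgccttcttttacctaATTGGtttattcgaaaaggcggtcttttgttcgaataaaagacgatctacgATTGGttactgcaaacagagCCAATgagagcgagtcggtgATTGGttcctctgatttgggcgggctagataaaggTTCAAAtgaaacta
Mki67, the Ki-67 protein of the surface of mitotic chromosomes, chr7:135716464-135716575, minus strand of GRCm38.p6: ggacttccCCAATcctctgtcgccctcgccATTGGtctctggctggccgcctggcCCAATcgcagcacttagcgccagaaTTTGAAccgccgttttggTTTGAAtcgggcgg
Cdc20, activator of the anaphase-promoting complex, chr4:118437344-118437404, minus strand of GRCm38.p6: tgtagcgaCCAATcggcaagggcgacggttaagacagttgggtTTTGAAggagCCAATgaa
Mcm6, a helicase subunit, chr1:128359707-128359823, minus strand of GRCm38.p6: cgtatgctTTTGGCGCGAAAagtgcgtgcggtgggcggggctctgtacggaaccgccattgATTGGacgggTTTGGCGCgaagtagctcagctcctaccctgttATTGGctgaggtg
Mcm7, a helicase subunit, chr5:138171897-138172056, minus strand of GRCm38.p6: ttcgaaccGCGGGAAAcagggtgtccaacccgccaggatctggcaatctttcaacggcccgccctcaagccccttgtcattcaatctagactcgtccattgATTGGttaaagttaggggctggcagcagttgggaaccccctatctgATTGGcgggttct
A match describes these letters only and is not evidence of binding in the ureter. Of the 4 mitotic genes shown, Cdk1, Top2a and Mki67 each hold a CHR at more than 1 place, and all 4 hold at least 2 CCAAT boxes. The E2F element of Cdk1 stands in lower case.

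**Figure D1:**
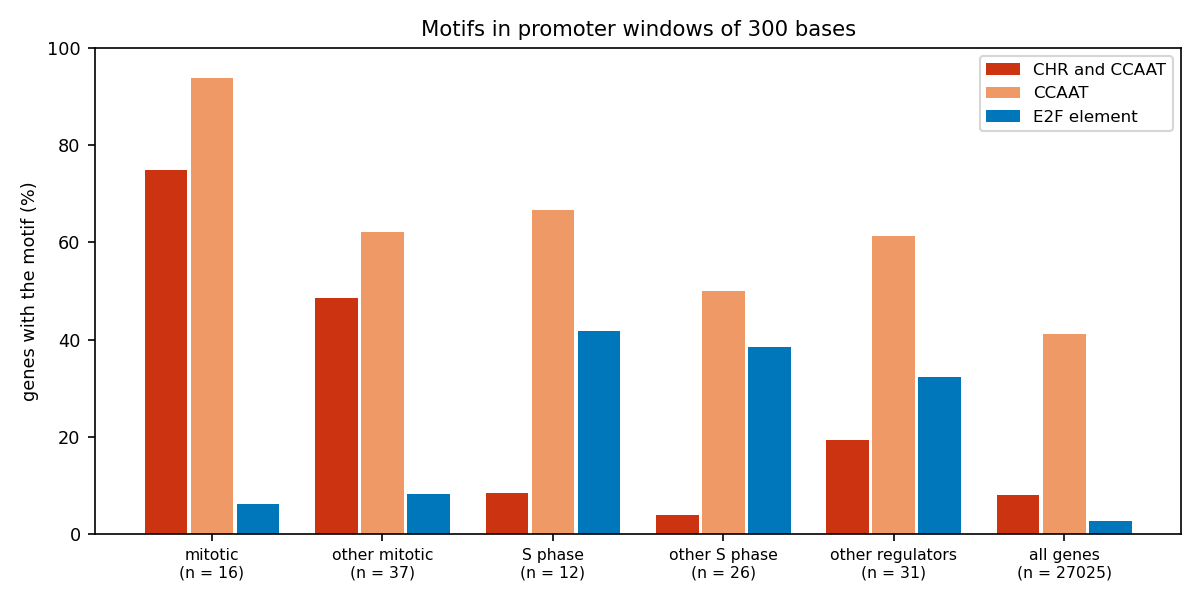
Share of genes (%, bars from 0) whose 300-base promoter window holds both a CHR and a CCAAT box, a CCAAT box, or an E2F element, by gene list, with the number of genes with a window in brackets. The mitotic lists stand highest for CHR with CCAAT (75% of the members and 48.6% of other mitotic genes), and the S phase lists and the other regulators for E2F.

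Most of the cell cycle genes were detected in the adult ureter. The test placed 30 of the 39 above background (76.9%, where it placed 57.8% of all 18193 named genes). The 9 that were not were Aurkb, Bub1, Bub1b, Cenpe, Kif11, Kif20a and Plk1 of mitosis, and Ccne2 and Tyms of S phase. The D cyclins and CDK inhibitors were all above background, as were 12 of 14 S phase genes (85.7%). Of 19 measured mitotic genes 12 were (63.2%), a share near that of all named genes. Counted in single samples with no test, 33, 38, 35 and 35 of the 39 lay over the threshold in replicates 1 to 4, against 66.9%, 68.5%, 67.4% and 65.9% of all named genes. In replicate 2 all 19 mitotic genes lay over it, and in replicate 1 only 14 of them. With a background at the median of the receptor probe sets plus 3 median absolute deviations, 17 of the 39 were above it. The share of all named genes above that background is not given here, so this count has no comparison.

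**Figure D2:**
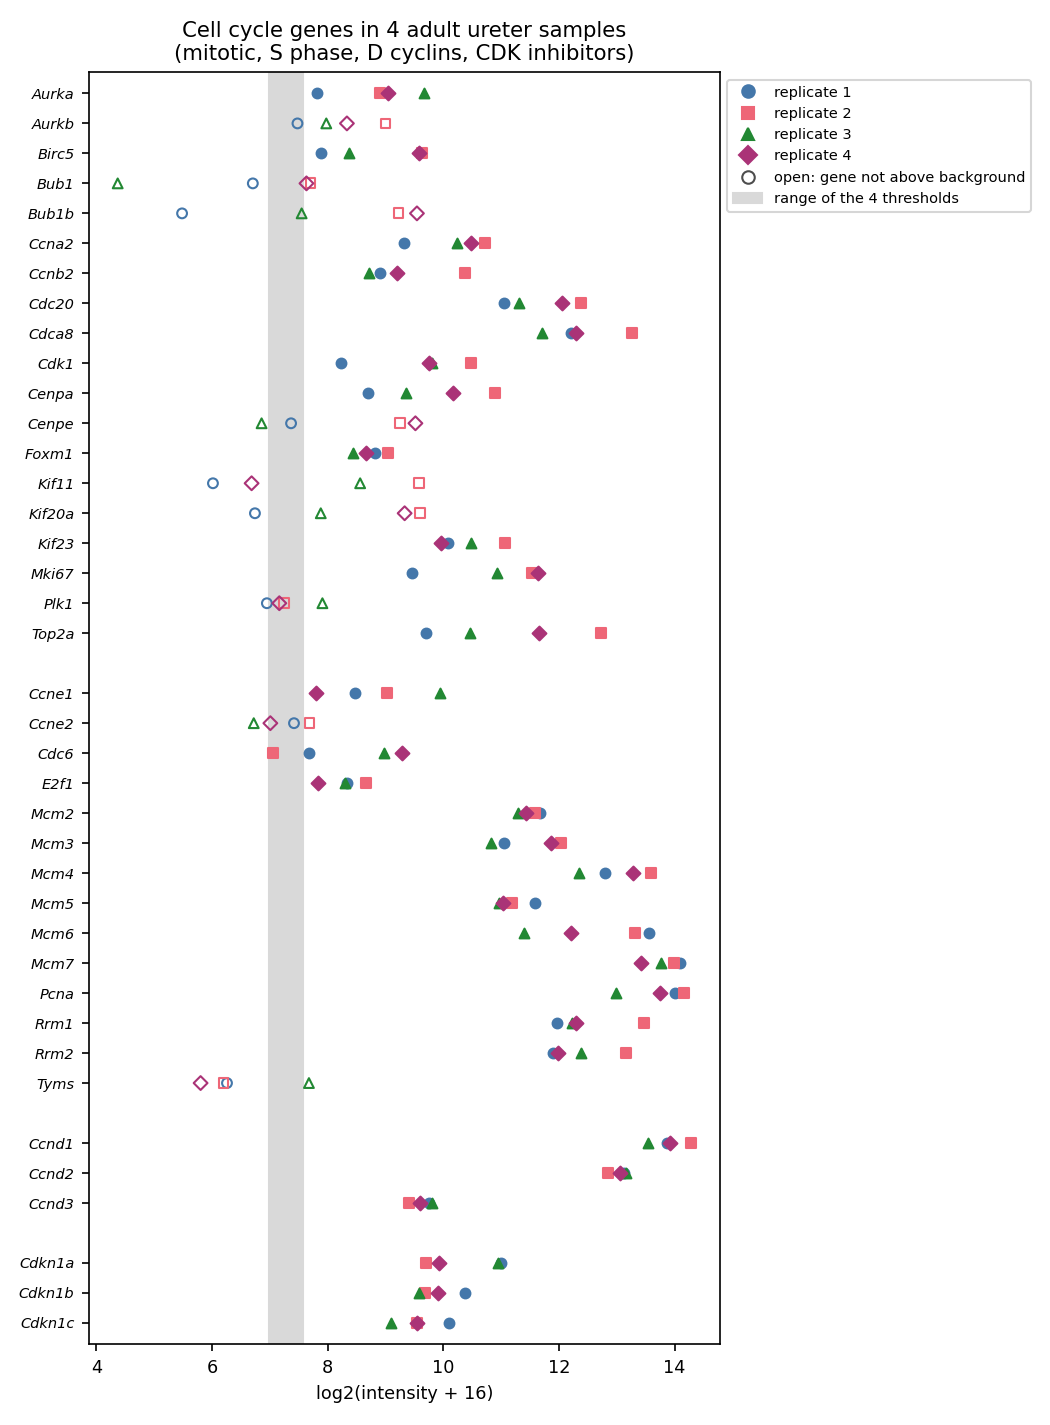
Levels, log2(intensity + 16), of the 39 measured cell cycle genes in each of the 4 samples, from top to bottom the mitotic genes, the S phase genes, the D cyclins and the CDK inhibitors. Filled symbols are genes above background, open symbols genes that are not, and the grey band spans the thresholds of the 4 arrays, 6.99 to 7.57; replicate 1 is the leftmost symbol for Mki67, Top2a, Cdk1 and Cenpa.

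Most mitotic genes had a like order over the samples, with replicate 1 low and replicate 2 high. Of the 12 above background, 8 had their lowest level in replicate 1 (19.4% of all 10522 genes above background did) and 10 their highest in replicate 2 (25.3%). In replicate 1, 11 of 12 lay below the mean of the other 3 samples (46.7% of all genes), and in replicate 2 all 12 lay above it (52.3%). The median difference from the other samples was -1.23, 0.96, -0.46 and 0.32 in the order of replicates 1 to 4, while the median over all named genes above background stayed between -0.05 and 0.05. In replicate 1, 7 of the 12 were lower by 1 log2 unit or more, against 4.44% of all genes and 5.51% of the 6641 genes whose levels lie in the same range. In this bulk tissue, fewer dividing cells and less of these transcripts per cell cannot be told apart.

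Proliferation and chromosome genes showed wide gaps between samples. Mki67 had 9.46, 11.53, 10.92 and 11.65 in replicates 1 to 4 (10.89 ± 1.00). Top2a had 9.71, 12.73, 10.47 and 11.65 (11.14 ± 1.33). Cenpa, the histone variant that marks centromeres, had 8.70, 10.90, 9.36 and 10.17 (9.78 ± 0.96). In all 3 replicate 1 was lowest, and replicates 2 and 4 were the highest pair. The Top2a and Cenpa levels come from probe sets whose suffix marks possible matches to more than 1 transcript, and neither gene was above background on its unmarked probe sets. Marked probe sets also gave the levels of Aurkb, Birc5, Cdc20, Cdca8 and Kif20a. Among S phase genes they gave those of Mcm2, Mcm3, Mcm5, Mcm6, Mcm7, Rrm2, Cdc6, E2f1 and Ccne1.

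The kinases, cyclins and transcription factor that drive mitosis were less uniform. Cdk1 had 8.23 in replicate 1 and 10.47, 9.81 and 9.75 in replicates 2 to 4 (9.57 ± 0.95). Ccna2, the cyclin of S phase and early mitosis, had 9.32, 10.72, 10.23 and 10.49 (10.19 ± 0.61), and its second probe set had 8.22, 10.39, 10.10 and 10.26. For both genes replicate 1 stood apart below the other samples. Ccnb2, a mitotic cyclin, instead stood apart above, with 10.38 in replicate 2 and 8.90, 8.71 and 9.20 in replicates 1, 3 and 4 (9.30 ± 0.75). Aurka, the kinase of spindle poles, was an exception at the top, with 7.82, 8.90, 9.66 and 9.03 (8.85 ± 0.76), highest in replicate 3. Mki67, given above, was the other mitotic gene above background not highest in replicate 2. Foxm1, the transcription factor of the mitotic wave, had the smallest SD of the 12, with 8.82, 9.05, 8.43 and 8.66 (8.74 ± 0.26).

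Genes of the chromosomal passenger complex, of the spindle and of mitotic exit followed. Birc5, survivin, had 7.89, 9.63, 8.37 and 9.58 (8.87 ± 0.88), with replicates 2 and 4 above the other samples. Cdca8, borealin, had 12.21, 13.27, 11.70 and 12.29 (12.37 ± 0.66), with replicate 2 highest and replicate 3, not replicate 1, lowest. Cdc20, whose promoter is shown above, had 11.05, 12.38, 11.31 and 12.05 (11.70 ± 0.62). Its second probe set above background had 9.09, 10.79, 9.94 and 10.44, the same order. Kif23, a kinesin of the midbody, had 10.09, 11.07, 10.49 and 9.96 (10.40 ± 0.50) and was lowest in replicate 4. Counting each of the 15 mitotic probe sets above background separately, 10 were lowest in replicate 1 and 13 highest in replicate 2.

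The mitotic genes that did not pass the test of the mean were dim in some samples and clear of the threshold in others. Bub1b, a kinase-like protein of the spindle checkpoint, had 5.48 in replicate 1 and 9.22, 7.55 and 9.54 in replicates 2 to 4. Kif20a, a kinesin of cytokinesis, had 6.74, 9.59, 7.88 and 9.33, and Cenpe, a kinesin of the kinetochore, had 7.37, 9.24, 6.86 and 9.52. All 3 were clear of it in replicates 2 and 4. Kif11, the motor that separates spindle poles, had 6.01, 9.58, 8.56 and 6.68, and was over the threshold in replicates 2 and 3. Aurkb, the kinase of the passenger complex, had 7.48, 9.00, 7.97 and 8.33 with all samples over the threshold, and missed the call narrowly (limma, adjusted p = 0.0503). Plk1, a kinase of mitotic entry, had 6.95, 7.24, 7.91 and 7.16, highest in replicate 3 and not in replicate 2. Bub1, a checkpoint kinase, had 6.70, 7.70, 4.37 and 7.63, lowest in replicate 3 and not in replicate 1. With all 19 measured mitotic genes the median differences were -1.17, 1.20, -0.52 and 0.39.

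The S phase genes did not share the low level of the mitotic genes in replicate 1. Of the 12 above background 6 lay above and 6 below the other samples there, with a median difference of -0.11. By the brightest probe sets only 2 of the 12 were lowest in replicate 1, and none was lower by 1 log2 unit or more. A second probe set of Rrm1 and of Rrm2 was lower by more than that (-1.48 and -1.36). Over all 23 S phase probe sets above background the median there was 0.03, with 12 higher and 11 lower. In replicate 2 the S phase median was 0.55, with 11 of 12 higher than the other samples, and in replicates 3 and 4 it was -0.29 and -0.24. The mitotic median minus the S phase median was thus -1.12, 0.42, -0.17 and 0.57 from replicate 1 to 4. No test was made of this difference, since genes of a list are not replicates. When each gene's level was the mean over all its probe sets, dim ones included, the difference in replicate 1 was -0.47, from a mitotic median of -0.67. The difference in replicate 2 was 0.05 on unmarked probe sets and -0.04 without replicate 1. Under the alternatives run, the difference kept its sign in replicates 1 and 4 and not in replicates 2 and 3.

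**Figure D3:**
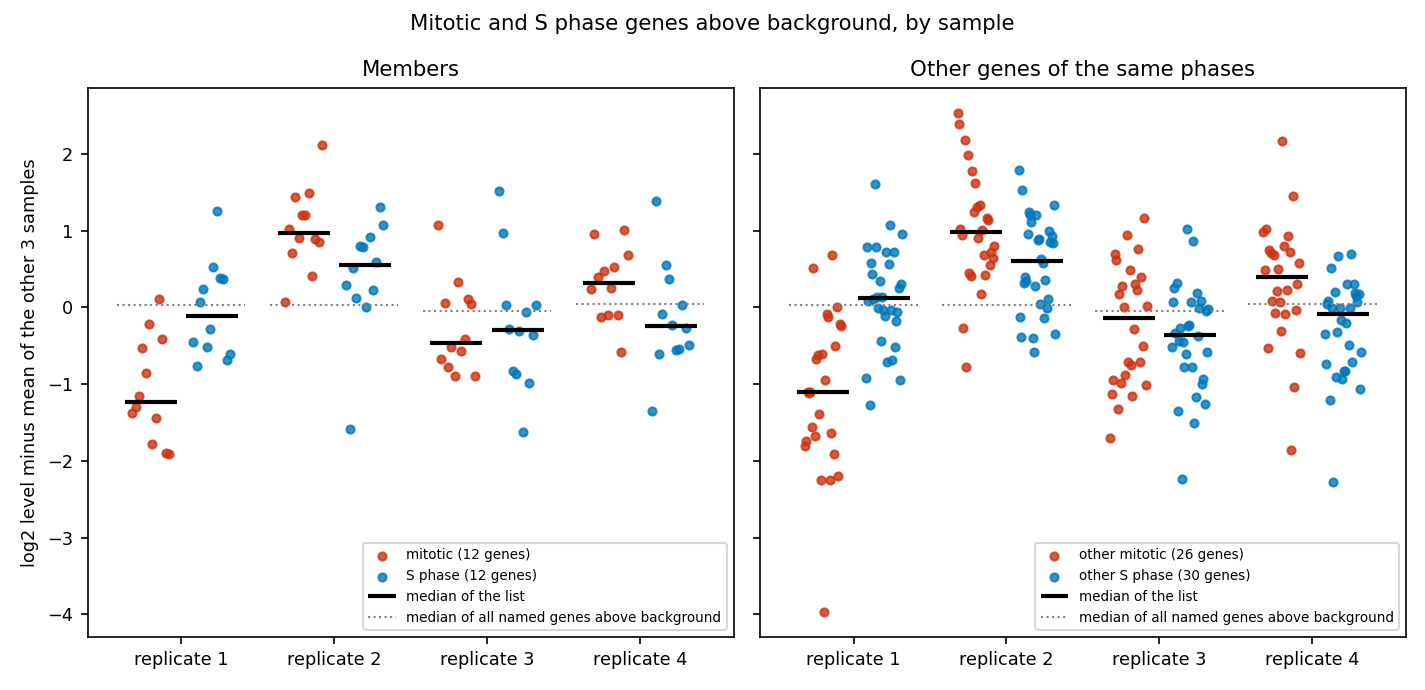
Difference of each gene's log2 level from the mean of the other 3 samples, for mitotic (red) and S phase (blue) genes above background, members on the left and other genes of the same phases on the right, with black bars at the list medians and dotted lines at the median of all named genes above background. In replicate 1 the mitotic medians lie at -1.23 and -1.10 and the S phase medians at -0.11 and 0.12.

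Of the 6 subunits of the replicative helicase, Mcm2, Mcm5 and Mcm7 had SDs of 0.17, 0.28 and 0.30, and Mcm3, Mcm4 and Mcm6 of 0.60, 0.55 and 1.00, against a median SD of 0.41 over all genes above background. Mcm2 had 11.68, 11.59, 11.29 and 11.43 (11.50 ± 0.17), Mcm5 had 11.58, 11.20, 10.96 and 11.02 (11.19 ± 0.28), and Mcm7 had 14.10, 13.99, 13.77 and 13.41 (13.82 ± 0.30). By these brightest probe sets their highest sample was replicate 1, where the mitotic genes were low, with replicate 2 close behind for Mcm2 and Mcm7. The second Mcm2 probe set was also highest in replicate 1. A second Mcm5 probe set above background was highest in replicate 3, with 9.11, 8.56, 9.39 and 8.44. The other Mcm7 probe sets were highest in replicate 1, 2 or 4. Mcm3, with 11.06, 12.04, 10.82 and 11.86 (11.45 ± 0.60), and Mcm4, with 12.79, 13.60, 12.35 and 13.29 (13.01 ± 0.55), were instead highest in replicates 2 and 4. Mcm6 had 13.56, 13.31, 11.40 and 12.21 (12.62 ± 1.00) and was low in replicate 3. Its second probe set above background was also lowest there, with 12.77, 12.89, 11.08 and 12.25. Of all 30 members above background 12 were lowest in replicate 3, close to the 34.3% of all genes.

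The other S phase genes fall by function. Pcna, the sliding clamp of DNA polymerase, had 14.00, 14.17, 12.99 and 13.75 (13.73 ± 0.52) and was low in replicate 3. Rrm1 and Rrm2, the subunits of ribonucleotide reductase, were highest in replicate 2 by their brightest probe sets. Rrm1 had 11.97, 13.48, 12.23 and 12.29 (12.49 ± 0.67), and Rrm2 had 11.89, 13.15, 12.38 and 11.98 (12.35 ± 0.58). On these probe sets both were lowest in replicate 1, though by less than 0.3 below the next sample. On a second Rrm2 probe set above background the gap was wider, with 9.51, 11.82, 10.31 and 10.51. Cdc6, which loads the helicase, had 7.67, 7.06, 8.97 and 9.29 (8.25 ± 1.06) and was lowest in replicate 2, at its threshold. Ccne1, the cyclin of S phase entry, had 8.47, 9.02, 9.95 and 7.80 (8.81 ± 0.91), and E2f1 had 8.34, 8.67, 8.31 and 7.83 (8.28 ± 0.35). These 3 were near background. Neither Cdc6 nor E2f1 passed with the background at the 99th percentile, Cdc6 did not pass without replicate 1, 3 or 4, and E2f1 did not without replicate 1 or 2. Ccne2 ranged from 6.72 to 7.69. Tyms, thymidylate synthase, was at 7.67 in replicate 3 and 5.80 to 6.26 in the others by its brightest single-symbol probe set, and a probe set annotated with Tyms and a second symbol was not used.

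The D cyclins were even across samples by their brightest probe sets. Ccnd1 had 13.86, 14.29, 13.55 and 13.93 (13.90 ± 0.30), Ccnd2 had 13.12, 12.85, 13.16 and 13.05 (13.04 ± 0.14), and Ccnd3 had 9.75, 9.41, 9.80 and 9.60 (9.64 ± 0.18). None followed the mitotic genes: replicate 1 was neither the highest nor the lowest sample for any of the 3. Other probe sets of the same genes gave another picture. A second Ccnd2 probe set had 12.23, 11.21, 14.00 and 13.36, and all 4 of the other Ccnd2 probe sets above background were higher in replicates 3 and 4 than in replicates 1 and 2. A Ccnd1 probe set had 8.11, 8.29, 9.94 and 10.55, and an Rrm1 probe set had 7.86, 8.06, 9.65 and 10.31. Replicates 1 and 2 are the arrays with the higher Actb ratios (8.23 and 19.8, against 5.27 and 4.43 in replicates 3 and 4), and the part of RNA quality in these values was not tested. Among other probe sets of a gene above background, 7 of 20 for the members (35%) stood 1 log2 unit or more higher, relative to the brightest one, in replicates 3 and 4 than in 1 and 2, and 17.6% of 6169 for all genes did. All 7 belong to Ccnd1, Ccnd2 and Rrm1.

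**Figure D4:**
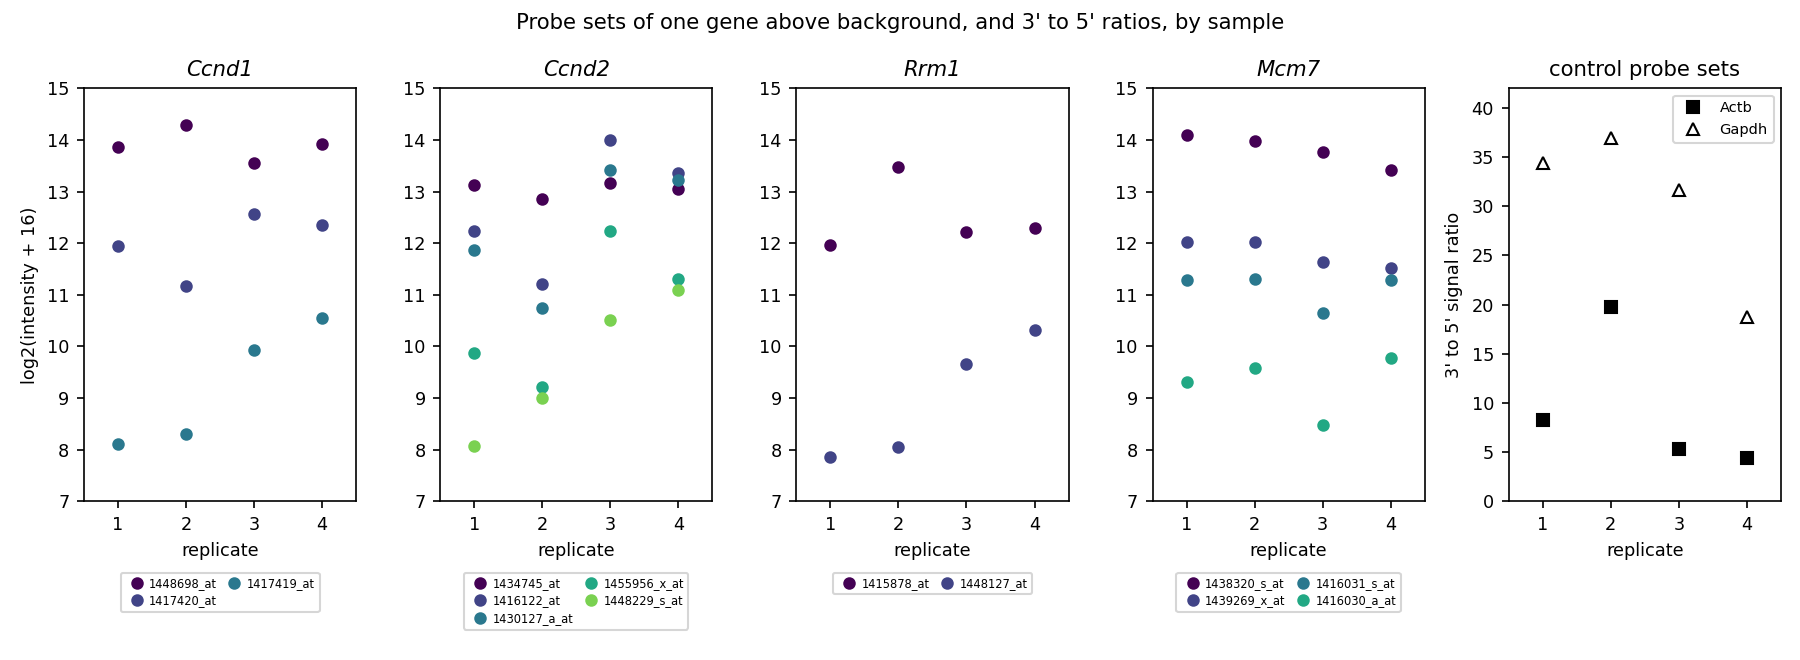
Levels, log2(intensity + 16), of every probe set above background for Ccnd1, Ccnd2, Rrm1 and Mcm7 in replicates 1 to 4, and on the right the 3' to 5' signal ratios of the Actb and Gapdh control probe sets. The brightest Ccnd2 probe set lies between 12.85 and 13.16 in all samples, while 4 others are lower in replicates 1 and 2; the Mcm7 probe sets show no such split.

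The 3 CDK inhibitors of the set ran against the mitotic genes in replicate 1. All 3 had their highest level there (23% of all genes above background did), with a median 0.71 above the other samples. Cdkn1a, the inhibitor induced by the tumour suppressor p53, had 10.99 in replicate 1 and 9.70, 10.95 and 9.92 in replicates 2 to 4 (10.39 ± 0.67). Replicates 1 and 3 were the high samples and replicate 2 the lowest. Cdkn1b, which holds resting cells out of S phase, had 10.38, 9.68, 9.57 and 9.91 (9.89 ± 0.36). Cdkn1c, an imprinted inhibitor, had 10.10, 9.54, 9.10 and 9.55 (9.57 ± 0.41). In both the gap between replicate 1 and the next sample was under 0.6.

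No single gene passed a test of its variance. In an F test of each probe set's variance over 4 samples against limma's prior variance, 0 of 30 members above background passed (adjusted p under 0.05), and 0% of all genes above background did. Before adjustment, with each gene taken by its brightest probe set, 2 members, Top2a and Mcm6, were under 0.05, against 5.43% of all genes, a share near that of the members. Ccnd2 would join these 2 members by its other probe sets above background, though not by its brightest. The prior comes from the same arrays, so variation that most probe sets share is not seen by this test. The smallest adjusted p of this F test over all 18414 probe sets tested was 0.0645, so it called none on these arrays. The 1 seminal vesicle and prostate gene above background had an SD of 3.16 and did not pass either. The test therefore cannot tell whether the members varied between samples.

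Other genes of the pathway, in lists that hold none of the 40, showed a like gap between the phases in replicate 1. Of 112 measured genes 84 were above background, with 26 of 44 mitotic genes, 30 of 32 S phase genes and 28 of 36 regulators. In replicate 1 the median of the mitotic genes was -1.10 with 24 of 26 lower than the other samples, and the median of the S phase genes was 0.12 with 13 of 30 lower. The mitotic median minus the S phase median was -1.22, 0.37, 0.22 and 0.48 in replicates 1 to 4. In replicate 4, 18 of 26 mitotic genes and 12 of 30 S phase genes were higher than the other samples, against 53.4% of all genes above background. The median of the regulators, such as kinases, E2F factors and checkpoint genes, stayed between -0.22 and 0.22.

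By the largest spread, 3 genes of each list are named. Kif22, a kinesin of chromosome arms, had 8.32 in replicate 1 and 12.28, 11.66 and 12.93 in replicates 2 to 4 (11.30 ± 2.05). Anln, an actin binder of the cleavage furrow, had 8.72, 11.98, 8.80 and 10.82 (10.08 ± 1.59), and Aspm, a spindle pole protein, had 7.52, 10.62, 7.98 and 9.19 (8.83 ± 1.39). All 3 were lowest in replicate 1 and had replicates 2 and 4 highest, although Kif22 was not above background on its unmarked probe sets. In the S phase list, Gins1, of the helicase complex, had 9.95, 9.46, 8.54 and 7.03 (8.74 ± 1.28). Gins2 had 10.74, 11.09, 8.47 and 10.31 (10.15 ± 1.16), and Cdc7, a kinase that fires origins, had 8.06, 10.10, 8.36 and 8.49 (8.75 ± 0.92). Their patterns differ, with Gins1 highest and Cdc7 lowest in replicate 1. Of the regulators, the CDK inhibitor Cdkn2d had 7.65, 10.03, 8.31 and 10.59 (9.14 ± 1.39), low in replicate 1 as the mitotic genes were. The CDK inhibitor Cdkn2b had 8.81, 9.46, 10.75 and 9.30 (9.58 ± 0.83) and was also lowest in replicate 1, unlike the 3 CDK inhibitors of the set. The stress-induced Gadd45a had 9.98, 9.05, 10.13 and 8.04 (9.30 ± 0.97).

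Among mitotic genes, promoter class and the gap in replicate 1 were set side by side. The 9 mitotic members above background with both CHR and CCAAT had a median of -1.38 in replicate 1, and all 9 were lower there than in the other samples. The 1 mitotic member above background with a window but without both motifs was at -1.30. Of the other mitotic genes, 11 with both motifs had a median of -1.64 (11 lower) and 11 without both had -0.63 (9 lower). Over all named genes above background with a promoter window, the 461 with both motifs had a median of 0.03 in replicate 1 and the 8087 without had 0.03. Both medians lay near 0. The 1 S phase member with both motifs was at 0.24, and 3 regulators with both had a median of 0.10, with 1 of 3 lower.

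Markers of some other cells moved between the same samples. The summed intensity of 10 contractile smooth muscle genes, all above background, was 31366, 104631, 67066 and 43765 over replicates 1 to 4. All 10, among them Actg2, Acta2 and Myh11, were lowest in replicate 1 and highest in replicate 2, as most mitotic genes were. In replicates 3 and 4 the 2 lists parted: the smooth muscle medians were 0.21 and -0.49, and the mitotic medians -0.46 and 0.32. Of 8 measured T lymphocyte genes 1 was above background, and 1, 5, 2 and 3 lay over the threshold in replicates 1 to 4. Their summed intensity was 1066, 3081, 1104 and 1277, and Cd3g had 10.41 in replicate 2 and 7.18 to 7.93 elsewhere, while Cd3e reached 8.10 there and Cd3d was under the threshold in every sample. Of 9 male germ cell genes 1 was above background, and the 9 had summed intensities of 808 to 1111. The liver genes summed to 46535 in replicate 1, against 445, 12505 and 510 in replicates 2 to 4. None of these markers had an intensity of exactly 0. The seminal vesicle and prostate genes, given above, were highest as a sum in replicate 2, where most mitotic genes were highest. All 7 endothelial genes above background were higher in replicate 2 than in the other samples, with a median of 1.22, as were all 8 macrophage genes, with a median of 0.59. The 8 macrophage genes were also all higher in replicate 1, with a median of 0.21. The 10 urothelial genes above background, of 12 measured, had medians of -0.10, -0.03, 0.29 and -0.17 in replicates 1 to 4. Single genes were less even. In replicate 2, 2 of the 10, Krt5 and Trp63, had their highest level and 3 their lowest. The 2 genes not above background, Upk3a and Krt20, reached 14.91 and 11.69 in replicate 3 and lay under the threshold in the other samples. In replicate 3, where Pcna and Mcm6 were low, all 8 fibroblast genes were lower, with a median of -2.14, and all 7 endothelial genes, with a median of -2.00. The part of these cells in the mitotic and S phase values was not tested.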

How the data were processed

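Linear intensities for 45101 probe sets were deposited by the authors for every array. The submitters' processing notes name GCOS, with no algorithm or version. After trimming 2% of probe sets at each end, each array averaged 1500, so a per-array scaling had been applied before deposit, and no further scaling was done. The 64 control probe sets were kept out of the tests. Gene symbols came from the annotation table of the platform (34945 of 45037 probe sets have 1 symbol, 932 several, 9160 none), and 34741 identifiers matched RefSeq's gene table of GRCm38.p6, which changed 0 symbols. Values were analysed in R 4.3.3 with limma 3.58.1 (lmFit and eBayes, trend and robust) on log2(intensity + 16), with thresholds at the 95th percentile of 84 chemosensory receptor probe sets, of which 0 were called. The spread test has 3 and 5.25 degrees of freedom. Motifs were searched with Python 3.11.15. The code of the tests was run on simulated data in which all dim probe sets were set to 1 low level. That run does not measure the error rates of the tests on these arrays. The arrays correlated at r of 0.89 to 0.94 over probe sets, and no 2 arrays were identical. Quantile normalization shifted the median of all probe sets by -0.24 to 0.21 and of those above background by under 0.1.

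The members, gene lists and named-gene rule (all members, the 3 most variable genes above background of each other list, and marker genes) were chosen with earlier results of these data known. Alternatives covered quantile normalization, a pseudocount of 1 or 64, other probe set rules, other backgrounds and calls, other lists and leaving out each sample.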

Additional observations from a re-analysis of the deposited data

How the results depend on the processing

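The mitotic median of replicate 1 stayed below 0 (-1.23 to -0.67) and that of replicate 2 above 0 (0.70 to 1.32) under every alternative run, and the difference between mitotic and S phase medians in replicate 1 stayed between -1.29 and -0.47. In replicate 3 that difference was 0.69 on unmarked probe sets, against -0.17 on all. Counts of members above background were 29 to 31 when 1 sample was left out, and 77 to 87 for the other pathway genes. Where the background was set 3 median absolute deviations over the median, 17 members and 51 other pathway genes were above it. Shares of all named genes under these alternatives are not given here. The number passing the spread test was 0 under each of its alternatives.

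Counts of members highest or lowest in a sample moved more, and they too are given without the shares of all genes under each alternative. With that background 10 were highest in replicate 2 and 5 lowest in replicate 1, 1 was highest in replicate 3 and 1 in replicate 4, and 2 were lowest in replicate 2 and 2 in replicate 4. With quantile normalization 2 were lowest in replicate 2 and 7 in replicate 4. On unmarked probe sets 4 were highest in replicate 1, 1 was highest in replicate 4 and 2 were lowest in replicate 4. With levels averaged over probe sets 3 were highest in replicate 1 and 6 in replicate 4. With the 99th percentile 1 was highest in replicate 4, and with all measured members 4 were. Leaving out 1 sample gave 7 to 9 highest in replicate 1, 18 to 22 in replicate 2, 4 to 7 in replicate 3 and 3 to 13 in replicate 4, and 12 to 17 lowest in replicate 1, 3 to 5 in replicate 2, 12 to 22 in replicate 3 and 5 to 9 in replicate 4, since the sample left out passes its place to another.

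Some single calls turned, with the mean level then below the threshold. With 3 median absolute deviations over the median the distances in log2 units were -1.13 for Cdc6, -1.10 for E2f1, -0.57 for Ccne1, -0.0840 for Ccnb2, -0.53 for Aurka, -0.51 for Birc5, -0.64 for Foxm1, -0.55 for Aspm, -0.24 for Cdkn2d, -0.0807 for Gadd45a, -0.64 for Gins1 and -0.63 for Cdc7. On unmarked probe sets they were -0.16 for E2f1, -0.66 for Ccne1, -0.94 for Top2a, -2.08 for Cenpa and -1.33 for Kif22, since the remaining probe sets of these genes are dim. Aurkb was above background without replicate 1 (limma, adjusted p = 0.0431) and without replicate 3 (0.0397), Bub1b (0.0333) and Kif20a (0.0175) without replicate 1, and Cenpe without replicate 3 (0.0158). Signal near background limits the dim genes most.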

Other observations

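The genes around the D cyclins, named here after their values were seen, were above background. Cdk4, a kinase partner of the D cyclins, had 13.17, 13.11, 13.06 and 12.60 in replicates 1 to 4 (12.99 ± 0.26). Cdk6, the related kinase, had 13.66, 13.42, 12.18 and 13.63 (13.22 ± 0.70), low in replicate 3. Rb1, the retinoblastoma protein that these kinases phosphorylate, had 13.07, 13.22, 13.13 and 12.98 (13.10 ± 0.10). Cdk2, the partner of cyclins E and A, was highest in replicate 1, with 11.85 there and 10.58, 10.58 and 10.43 in replicates 2 to 4 (10.86 ± 0.66). Myc, a growth-induced transcription factor, had 11.93, 12.67, 11.97 and 12.44 (12.25 ± 0.36).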
